A study of Mus musculus with 15 samples.

Results

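The BCL2 family genes that keep leukemic B-cells alive or commit them to death were followed in every library of an RNA-Seq study of malignant splenic B-cells. The members were 10 named genes, taken wherever their symbol occurs in both deposited tables: the survival genes Bcl2, Bcl2l1, Mcl1, Bcl2a1b and Bcl2a1d, the effector Bak1, and the BH3-only genes Bcl2l11, Bid, Bmf and Bad. Of these, 9 were listed in both tables, and Bcl2a1d was listed in neither by symbol or Ensembl identifier. The 9 genes stand among 16470 genes listed for DMSO and 16428 listed for ibrutinib, with 15869 genes in both.

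The cells came from Eμ-TCL1 mice, in which the immunoglobulin heavy-chain enhancer drives the TCL1 oncogene in B-cells, and from Eμ-TCL1;p53R172H/+ mice, which carry the same transgene and 1 mutant Trp53 allele beside a wild-type one. Hereafter the second genotype is written p53R172H/+, and all libraries of both genotypes carry the TCL1 transgene. Cells of treatment-naive C57Bl/6 mice were taken from mechanically disrupted, tumor-burdened spleens, and were cultured for 24 h with DMSO as vehicle or with 5 μM ibrutinib, an inhibitor of the kinase BTK in the B-cell receptor pathway. The ages of the mice were not given in the sources used here. There were 3 Eμ-TCL1 and 5 p53R172H/+ libraries in DMSO, and 3 Eμ-TCL1 and 4 p53R172H/+ libraries in ibrutinib. The labels do not state that each library is a separate mouse, so p-values measure only the spread between these libraries.

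BCL2 family proteins decide whether the outer mitochondrial membrane stays closed. The survival proteins hold the effectors Bak and Bax in check, BH3-only proteins such as Bim (the product of Bcl2l11) bind and neutralize the survival proteins, and free effectors open the membrane so that cytochrome c starts the caspases. In CLL, high Bcl2 is a hallmark of the disease, and signals of the B-cell receptor are known to raise Mcl1 and to restrain Bim.

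Values are CPM, read counts that the authors divided by an adjusted library size, in 1 table per treatment, and are given to 0.1. The sequencing depth is therefore unknown. Genotypes were compared within a treatment with limma on log2 of the value plus 1, as p53R172H/+ minus Eμ-TCL1, with p-values adjusted over all genes. Fold changes on this scale understate the change of low genes. Each treatment's table had its own scaling, so ibrutinib levels stand beside DMSO levels with no test.

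A set of 5 libraries stood apart, and most members were high or low in them. Summed levels of 10 B-cell markers were 318 and 325.4 in p53R172H/+ DMSO replicates 2 and 1 and 84.3 in p53R172H/+ ibrutinib replicate 1, whereas 13 T and NK cell markers summed to between 1834.4 and 3439.5 in these libraries. In Eμ-TCL1 DMSO replicate 2 and Eμ-TCL1 ibrutinib replicate 1, B-cell markers summed to 626.8 and 499.4 and 9 myeloid markers to 29117.8 and 20524.1, with Hbb-bs, an adult globin, at 11186.9 and 8935.2. The other 5 DMSO libraries had B-cell marker sums of 4755.7 and 6298 in Eμ-TCL1 and 3978.3 to 4638.4 in p53R172H/+. Their T and NK sums were 96.4 to 453. In ibrutinib the others had B-cell sums of 2722.5 and 3496.1 in Eμ-TCL1 but 558.2 to 1531.7 in p53R172H/+, where T and NK sums were 618.9 to 1187.6. Of these, p53R172H/+ replicate 3 had the 558.2, below the 626.8 of a library set apart, the 1187.6, and a myeloid sum of 1165.8. It was kept among the others. Leaving out the libraries that stood apart thus still left summed B-cell markers lower in p53R172H/+ than in Eμ-TCL1 in both treatments, and more so in ibrutinib. All B-cell markers were above 0 in every library, and the NK cell gene Ncr1 and the monocyte gene Cd14 were at 0 in all 3 T-cell-rich libraries. In bulk RNA, fewer cells of a type and less RNA per cell cannot be told apart. Xist, which female cells express, was at least 868.7 in every Eμ-TCL1 library, 837.6 to 1491.3 in p53R172H/+ DMSO replicates 3 and 5 and ibrutinib replicate 5, and at most 1.2 in the other 6 p53R172H/+ libraries, so that sex was not balanced between genotypes.

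**Figure D1:**
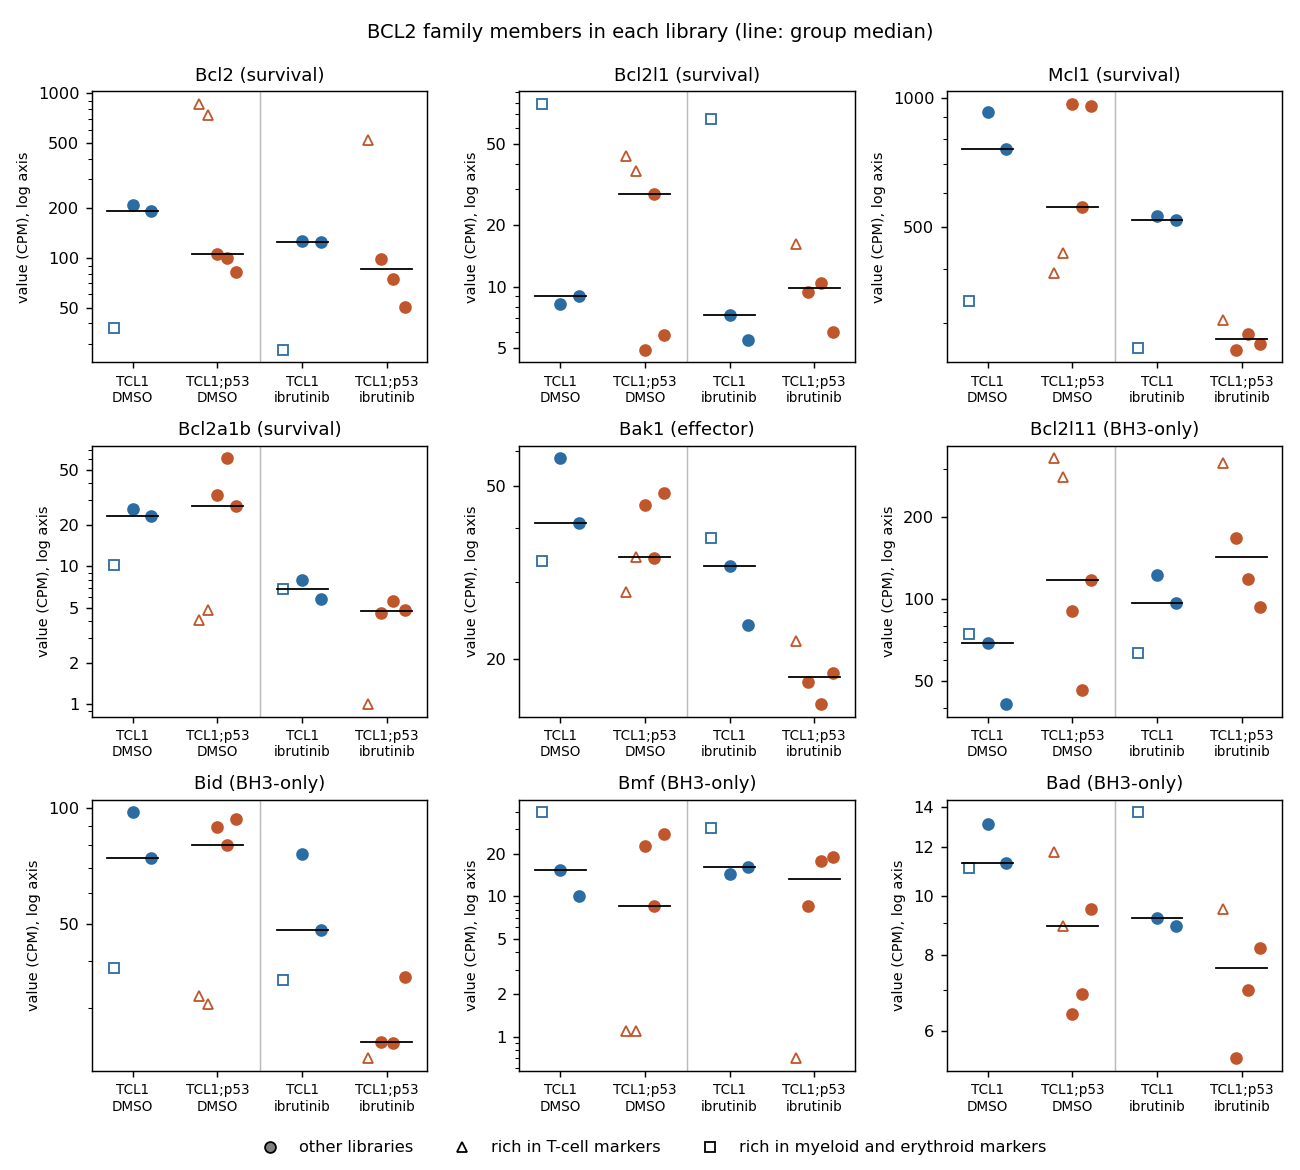
Values of the 9 measured members in each of 15 libraries (CPM, log axis), by genotype and treatment, with the group median as a line. Triangles are libraries rich in T-cell markers and squares libraries rich in myeloid and erythroid markers; Bcl2 was between 523.6 and 865.7 in the triangles, 27.6 and 37.5 in the squares, and between 50.1 and 209 elsewhere.

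No member passed the test for genotype in either treatment. In DMSO the log2 change was above 0 for 2 of 9 members and below 0 for 7, with a median of -0.13 beside 0.04 over all genes. By an adjusted p under 0.05, 0.0121% of all genes were called, namely the immunoglobulin segments Igkv12-89 and Ighv1-55, which are named because only 2 genes passed. No member had an unadjusted p under 0.05 in DMSO (8.17% of all genes did), and no member had groups that did not overlap (3.52% of all genes lay wholly above in p53R172H/+ and 2.93% wholly below). In ibrutinib the change was above 0 for 2 members and below 0 for 7, with a median of -0.58 beside -0.05 over all genes. There 0% of genes were called by limma after adjustment, and Bak1 and Bid were the 2 members with an unadjusted p under 0.05, beside 12% of all genes. Bak1 and Bcl2a1b lay wholly below Eμ-TCL1 in p53R172H/+, as did 5.97% of all genes, and no member lay wholly above, as did 6.68%.

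Bcl2 (ENSMUSG00000057329, chromosome 1 of GRCm38 from 106538178 to 106714274, minus strand) encodes the founding survival protein and the target of venetoclax. In DMSO, Bcl2 was 37.5, 209 and 194.1 in Eμ-TCL1 replicates 2, 3 and 4, and 865.7, 737.7, 106.4, 99.6 and 81.9 in p53R172H/+ replicates 1 to 5. In ibrutinib it was 27.6, 126 and 125.9 in Eμ-TCL1 replicates 1, 3 and 4, and 523.6, 98, 74 and 50.1 in p53R172H/+ replicates 1, 3, 4 and 5. The highest values were those of the T-cell-rich libraries and the lowest those of the myeloid-rich ones, so the groups overlapped in both treatments. The log2 change of Bcl2 was 0.95 in DMSO (standard error 0.99, adjusted p = 0.739) and 0.62 in ibrutinib (standard error 0.89, adjusted p = 0.767). Without the libraries that stood apart the direction turned, to -1.07 in DMSO (adjusted p = 0.104) and -0.81 in ibrutinib (adjusted p = 0.261). In both treatments the summed B-cell markers of the remaining libraries were also lower in p53R172H/+. Among the remaining libraries, the 3 p53R172H/+ values of Bcl2 lay below both Eμ-TCL1 values in each treatment, as did 16.2% of all genes in DMSO and 18.7% in ibrutinib. This was not particular to Bcl2. Of 9 members, 6 lay wholly below in ibrutinib (Bcl2, Mcl1, Bcl2a1b, Bak1, Bid and Bad) and 0 above. In DMSO 2 lay wholly below (Bcl2 and Bad) and 1 above (Bcl2a1b). The share of all genes wholly above among these libraries was not computed, so nothing is read from the counts above. With single libraries left out, the change in DMSO ran from 0.15 without Eμ-TCL1 replicate 2 to 1.37 without Eμ-TCL1 replicate 3. The part of T-cell and myeloid transcripts in the change of Bcl2 was not tested.

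Mcl1 (ENSMUSG00000038612, chromosome 3 from 95658788 to 95663176, plus strand) encodes a short-lived survival protein on which many B-cells depend. In DMSO, Mcl1 was 337.5, 927.4 and 760.9 in Eμ-TCL1 replicates 2, 3 and 4, and 391.6, 436.5, 968.1, 557.2 and 959 in p53R172H/+ replicates 1 to 5. In ibrutinib it was 262.2, 530.8 and 520.2 in Eμ-TCL1 replicates 1, 3 and 4, and 304.7, 259.4, 282.4 and 267.2 in p53R172H/+ replicates 1, 3, 4 and 5. Mcl1 was lowest in DMSO in the 3 libraries that stood apart, and in ibrutinib all 4 p53R172H/+ libraries were near the myeloid-rich Eμ-TCL1 library and below the other 2. The log2 change was -0.01 in DMSO (standard error 0.47, adjusted p = 0.994) and -0.58 in ibrutinib (standard error 0.28, adjusted p = 0.458). In ibrutinib it was -0.96 without the libraries that stood apart (adjusted p = 0.108), and the summed B-cell markers were also lower in p53R172H/+ there.

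Bcl2l1 (ENSMUSG00000007659, chromosome 2 from 152780668 to 152831728, minus strand) encodes Bcl-xL, which also keeps late red-cell precursors alive. In DMSO, Bcl2l1 was 79, 8.2 and 9 in Eμ-TCL1 replicates 2, 3 and 4, and 43.7, 36.8, 4.9, 28.5 and 5.8 in p53R172H/+ replicates 1 to 5. With the inhibitor it was 66.3, 7.3 and 5.5 in Eμ-TCL1 replicates 1, 3 and 4, and 16.3, 9.4, 10.4 and 6 in p53R172H/+ replicates 1, 3, 4 and 5. The 2 highest values were those of the globin-rich libraries, and p53R172H/+ DMSO replicate 4, whose B-cell markers summed to 4638.4, had the only value above 10.4 among the libraries that did not stand apart. The log2 change was -0.10 in DMSO (adjusted p = 0.981) and -0.49 in ibrutinib (adjusted p = 0.801), with standard errors of 0.96 and 0.80. Without the libraries that stood apart the direction turned, to 0.14 and 0.36.

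Bcl2a1b (ENSMUSG00000089929, chromosome 9 from 89199209 to 89207827, plus strand) encodes A1, a survival protein induced by NF-κB in activated B-cells. It is 1 of a set of related copies on chromosome 9, of which Bcl2a1d (88723285 to 88731914, minus strand), Bcl2a1a (88956900 to 88962419, plus strand) and Bcl2a1c (114330135 to 114330578, plus strand) were in neither table. Bcl2a1c was not compared in sequence. The first 90 coding bases of 3 copies in the GENCODE M21 transcripts are shown because reads can be assigned to a copy only through bases such as the 6 at which they differ. Capitals mark positions at which the 3 sequences are not all alike (GRCm38, chr9:89199360-89199449, chr9:88957051-88957140 and chr9:88731630-88731719).
Bcl2a1b: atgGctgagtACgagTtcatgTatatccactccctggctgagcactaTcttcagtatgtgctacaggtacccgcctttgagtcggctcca
Bcl2a1a: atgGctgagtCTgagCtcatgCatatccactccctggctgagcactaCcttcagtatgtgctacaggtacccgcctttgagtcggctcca
Bcl2a1d: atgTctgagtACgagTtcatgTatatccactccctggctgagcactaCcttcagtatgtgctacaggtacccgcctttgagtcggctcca
Over 519 coding bases, Bcl2a1a differed from Bcl2a1b at 11 (97.9% identity) and Bcl2a1d at 6 (98.8%). Of the 768 windows of 50 bases in the Bcl2a1b transcript, 442 (57.6%) also occurred in the transcript of another copy, and the read length was not given in the sources used here. The Bcl2a1b row is therefore uncertain as a measure of that copy alone.

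In DMSO, Bcl2a1b was 10.2, 26.1 and 23.3 in Eμ-TCL1 replicates 2, 3 and 4, and 4.1, 4.8, 33, 60.9 and 27.3 in p53R172H/+ replicates 1 to 5. With ibrutinib, the values were 6.8, 8 and 5.8 in Eμ-TCL1 replicates 1, 3 and 4, and 1, 4.6, 5.6 and 4.8 in p53R172H/+ replicates 1, 3, 4 and 5. The groups did not overlap in ibrutinib, where the gap between them was 5.6 to 5.8, and every ibrutinib value lay below every DMSO value of the libraries that did not stand apart. Its log2 change was -0.13 in DMSO (standard error 0.87, adjusted p = 0.969) and -0.78 in ibrutinib (standard error 0.44, adjusted p = 0.515). The exact permutation test of the ibrutinib values (two-sided, 35 splits, smallest possible p = 0.0286) gave p = 0.0571. This permutation test was run on every member in both treatments, and its p-values are unadjusted. Apart from Bak1 and Bid in ibrutinib, every other p of it was at least 0.0893 (Bad in DMSO). Without the libraries that stood apart the change was 0.61 in DMSO (adjusted p = 0.489), against the direction over all libraries, and -0.39 in ibrutinib, where the B-cell markers were also lower in p53R172H/+.

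Bak1 (ENSMUSG00000057789, chromosome 17 from 27019810 to 27029009, minus strand) encodes an effector that forms pores in the mitochondrial membrane. In DMSO, Bak1 was 33.5, 57.9 and 41.1 in Eμ-TCL1 replicates 2, 3 and 4, and 28.5, 34.2, 45.2, 34.1 and 48.2 in p53R172H/+ replicates 1 to 5. Under ibrutinib, it was 37.8, 32.7 and 23.9 in Eμ-TCL1 replicates 1, 3 and 4, and 21.9, 17.7, 15.7 and 18.5 in p53R172H/+ replicates 1, 3, 4 and 5. The groups overlapped in DMSO, and in ibrutinib the 4 p53R172H/+ values were the lowest of the 7. Between genotypes its log2 change was -0.20 in DMSO (standard error 0.26, adjusted p = 0.795) and -0.72 in ibrutinib (standard error 0.21, 95% interval -1.22 to -0.23, unadjusted p = 0.0099, adjusted p = 0.304, limma). The exact permutation test of the ibrutinib values gave its smallest possible p of 0.0286 (unadjusted). The change in ibrutinib was -0.67 without the libraries that stood apart (adjusted p = 0.198). Bak1 had an r of -0.67 with the summed T and NK markers over all 15 libraries, and the part of cell makeup in its change was not tested.

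Bcl2l11 (ENSMUSG00000027381, chromosome 2 from 128126038 to 128162547, plus strand) encodes Bim, a BH3-only protein that binds all survival proteins of the family. In DMSO, Bcl2l11 was 74.4, 69.3 and 41.2 in Eμ-TCL1 replicates 2, 3 and 4, and 330.2, 281.8, 90.3, 46.4 and 117.5 in p53R172H/+ replicates 1 to 5. After ibrutinib, the same gene was at 63.6, 122.6 and 97.2 in Eμ-TCL1 replicates 1, 3 and 4, and 315.9, 168.1, 118.3 and 93.8 in p53R172H/+ replicates 1, 3, 4 and 5. The T-cell-rich libraries held the 3 highest values, and the groups overlapped in both treatments through p53R172H/+ replicate 4 in DMSO and replicates 4 and 5 in ibrutinib. The genotype difference on the log2 scale was 1.17 in DMSO (standard error 0.63, adjusted p = 0.645) and 0.77 in ibrutinib (standard error 0.43, adjusted p = 0.516). Without the libraries that stood apart it was 0.56 in DMSO and 0.17 in ibrutinib.

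Bid (ENSMUSG00000004446, chromosome 6 from 120891930 to 120916853, minus strand) encodes the BH3-only protein that caspase-8 cleaves to link death receptors to mitochondria. In DMSO, Bid was 38.3, 97.7 and 74.4 in Eμ-TCL1 replicates 2, 3 and 4, and 32.3, 30.8, 89.4, 80 and 94 in p53R172H/+ replicates 1 to 5. In the ibrutinib table it stood at 35.6, 76 and 48.2 in Eμ-TCL1 replicates 1, 3 and 4, and 22.2, 24.5, 24.4 and 36.2 in p53R172H/+ replicates 1, 3, 4 and 5. In DMSO the low values were those of the 3 libraries that stood apart, and in ibrutinib p53R172H/+ replicate 5 exceeded only the myeloid-rich Eμ-TCL1 library. Its log2 change was -0.16 in DMSO (standard error 0.49, adjusted p = 0.918) and -0.92 in ibrutinib (standard error 0.29, 95% interval -1.60 to -0.24, unadjusted p = 0.0148, adjusted p = 0.322, limma). The exact permutation test of the ibrutinib values gave an unadjusted p of 0.0571. The change in ibrutinib was -1.09 without the libraries that stood apart (adjusted p = 0.168). Bid followed the B-cell markers closely, with an r of 0.87 over 15 libraries and 0.81 over the 10 that did not stand apart, and these markers were lower in p53R172H/+ in ibrutinib.

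Bmf (ENSMUSG00000040093, chromosome 2 from 118528757 to 118549687, minus strand) encodes a BH3-only protein that senses damage to the cytoskeleton and loss of survival signals. In DMSO, Bmf was 39.7, 15.4 and 10.1 in Eμ-TCL1 replicates 2, 3 and 4, and 1.1, 1.1, 22.9, 8.6 and 27.7 in p53R172H/+ replicates 1 to 5. With the inhibitor it was 30.9, 14.4 and 16.1 in Eμ-TCL1 replicates 1, 3 and 4, and 0.7, 8.6, 17.9 and 19.2 in p53R172H/+ replicates 1, 3, 4 and 5. Opposite to Bcl2, Bmf was near 1 in the T-cell-rich libraries and highest in the myeloid-rich ones, and the groups overlapped. Between genotypes its log2 change was -1.32 in DMSO (standard error 1.0, adjusted p = 0.661) and -1.19 in ibrutinib (standard error 0.86, adjusted p = 0.577). Without the libraries that stood apart it was 0.47 in DMSO, against the direction over all libraries, and -0.07 in ibrutinib.

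Bad (ENSMUSG00000024959, chromosome 19 from 6941861 to 6951899, plus strand) encodes a BH3-only protein that growth factor signals hold inactive by phosphorylation. In DMSO it ranged from 11.1 to 13.1 in Eμ-TCL1, with a median of 11.3, and from 6.4 to 11.8 in p53R172H/+, with a median of 8.9. In ibrutinib it ranged from 8.9 to 13.7 and from 5.4 to 9.5, with medians of 9.2 and 7.6. The groups touched through p53R172H/+ replicate 1 in each treatment. The genotype difference on the log2 scale was -0.43 in DMSO (standard error 0.27, adjusted p = 0.645) and -0.44 in ibrutinib (standard error 0.26, adjusted p = 0.529), and -0.63 and -0.37 without the libraries that stood apart. Over 15 libraries Bad had an r between -0.17 and 0.27 with the 4 marker sums, but over the 10 libraries that did not stand apart its r with the B-cell markers was 0.66. Among those 10 libraries the summed B-cell markers were lower in p53R172H/+ in both treatments.

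**Figure D2:**
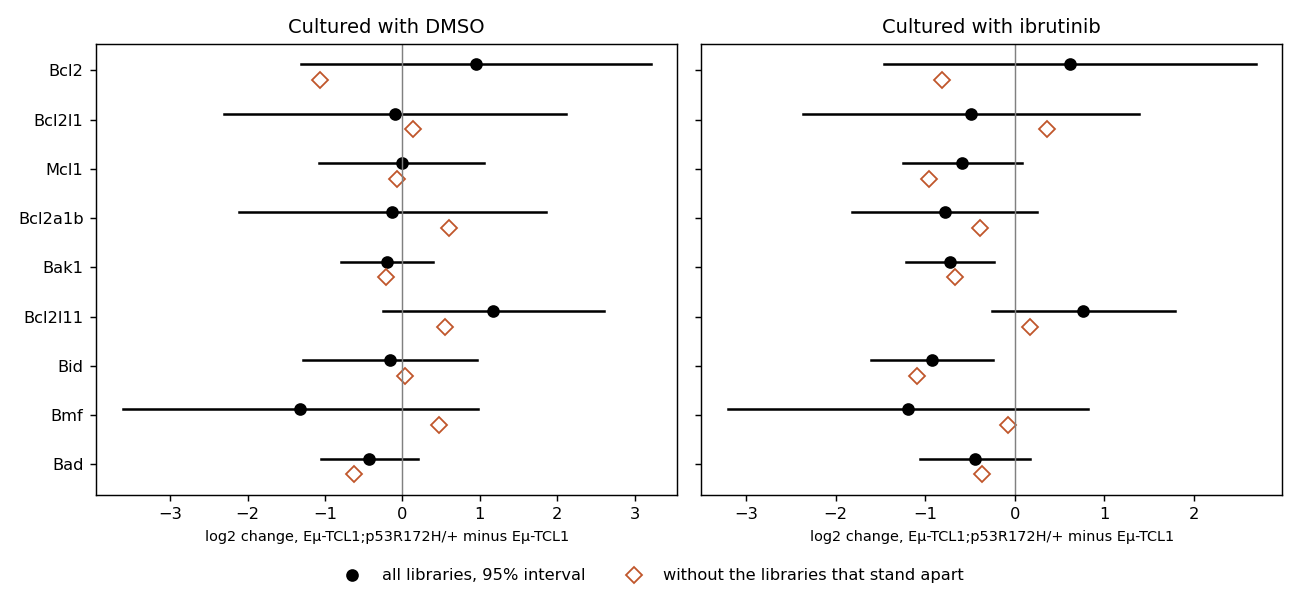
Log2 change of each member between genotypes (p53R172H/+ minus Eμ-TCL1) in DMSO and in ibrutinib, with 95% intervals over all libraries (black) and the value without the libraries that stood apart (diamonds). The interval excludes 0 only for Bak1 and Bid in ibrutinib, and the diamond of Bcl2 lies below 0 in both treatments, at -1.07 and -0.81.

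Per kilobase of exon in GENCODE M21, the 5 DMSO libraries that did not stand apart gave an order of levels between members. Mcl1 was by far the highest survival gene, at 163 to 283.2 CPM per kilobase, followed by Bcl2a1b at 28.5 to 74.5. Bid (21.0 to 27.5), Bak1 (14.2 to 24.1) and Bcl2 (8.94 to 22.8) overlapped one another, Bcl2l11 (5.13 to 14.6) overlapped Bcl2, and Bad (2.5 to 5.12), Bmf (1.64 to 5.27) and Bcl2l1 (1.07 to 6.22) formed the lowest levels without separation. In the ibrutinib libraries that did not stand apart, Mcl1 remained highest, at 75.9 to 155.3. There Bcl2l11 (11.7 to 20.9) overlapped Bid (6.87 to 21.4), Bak1 (6.52 to 13.6) and Bcl2 (5.47 to 13.8), and Bcl2a1b was at 5.63 to 9.79. The exon length holds all annotated isoforms, so these levels depend on which isoforms the cells use. The place of Bcl2a1b in this order is further uncertain, because 57.6% of its windows of 50 bases also occur in another copy.

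The difference between genotypes was also compared between treatments. No member passed this interaction test (0% of the 15869 shared genes were called), and no member had an unadjusted p under 0.05, beside 0.523% of all genes. The interaction was above 0 for 1 of 9 members and below 0 for 8, with a median of -0.41 beside -0.07 over all genes, of which 59.1% were below 0. The interaction was -0.52 for Bak1 (95% interval -1.24 to 0.19), -0.76 for Bid (-2.10 to 0.58) and -0.57 for Mcl1 (-1.80 to 0.65).

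Levels in ibrutinib beside those in DMSO differed between members. Over all shared genes, the median log2 difference of ibrutinib minus DMSO was -0.21 in Eμ-TCL1 and -0.28 in p53R172H/+. Bcl2a1b stood at -1.32 and -1.96, and only 0.863% and 0.618% of shared genes had a lower difference. Bcl2l11 stood at 0.60 and 0.20, above 98.1% and 82.4% of shared genes. In the libraries that did not stand apart, these differences were -1.71 and -2.71 for Bcl2a1b and 1.02 and 0.63 for Bcl2l11. Mcl1 stood at -0.57 and -1.15 over all libraries, Bcl2 at -0.59 and -0.92, Bid at -0.36 and -1.12, Bak1 at -0.46 and -0.99, Bmf at 0.06 and 0.19, Bad at -0.17 and -0.18, and Bcl2l1 at -0.34 and -0.73. Without the libraries that stood apart, Mcl1 was at -0.68 and -1.57, Bid at -0.49 and -1.62, and Bak1 at -0.78 and -1.24. Bcl2 was then at -0.67 and -0.41, Bcl2l1 at -0.385 and -0.17, and Bad at -0.39 and -0.13. Bmf was at 0.27 and -0.28, so its direction turned in p53R172H/+. The medians over all shared genes were then -0.21 and -0.25. These differences share their DMSO or ibrutinib libraries with the comparisons above, and the B-cell marker sums of the libraries that did not stand apart were lower in ibrutinib than in DMSO in both genotypes. The part of cell makeup in the differences was not tested.

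Ratios of 2 genes within a library depend on its scaling only through the pseudocount of 0.1, so these were tested between treatments. Of 6 tests (3 ratios in 2 genotypes), none passed. In Eμ-TCL1 the log2 ratio of Bcl2l11 to Bcl2 averaged -0.95 with an SD of 1.70 in 3 DMSO libraries and 0.26 with an SD of 0.83 in 3 ibrutinib libraries. In p53R172H/+ it averaged -0.72 (SD 0.84) in 5 DMSO libraries and 0.41 (SD 0.76) in 4 ibrutinib libraries. The exact permutation test (two-sided) gave p = 0.3 in Eμ-TCL1, where 0.1 is the smallest possible, and p = 0.0873 in p53R172H/+, where 0.00794 is the smallest (adjusted p = 0.45 and 0.4). The difference in p53R172H/+ was 1.13 over all libraries, 1.505 without the T-cell-rich ibrutinib replicate 1 alone (exact permutation p = 0.0357, unadjusted), and 1.06 when both T-cell-rich DMSO libraries were left out with it (exact permutation p = 0.1, the smallest for 3 against 3). In Eμ-TCL1 the difference was 1.21, and ran from 0.57 without DMSO replicate 4 to 2.18 without DMSO replicate 2. Bcl2l11 against Mcl1 averaged -3.38 in DMSO and -2.19 in ibrutinib in Eμ-TCL1 and -2.18 and -0.83 in p53R172H/+, with exact permutation p-values of 0.2 and 0.151 (adjusted p = 0.4 for both). The test in Eμ-TCL1 could not reach 0.05. There the difference was 1.18, from 0.77 without DMSO replicate 4 to 1.78 without DMSO replicate 2. In the libraries that did not stand apart, this ratio was -4.20 and -3.74 in Eμ-TCL1 in DMSO and -2.42 and -2.11 in ibrutinib. In p53R172H/+ it was -3.58, -3.42 and -3.03 in DMSO and -1.51, -1.26 and -0.63 in ibrutinib, so the treatments did not overlap among them in either genotype. In the same p53R172H/+ libraries B-cell marker sums were 3978.3 to 4638.4 in DMSO and 558.2 to 1531.7 in ibrutinib, and T and NK sums were 137.2 to 151.3 and 618.9 to 1187.6. Over these 10 libraries Mcl1 had an r of 0.69 with the B-cell markers and -0.63 with the T and NK markers, and the part of cell makeup in the ratio was not tested. The difference among these libraries was 1.71 in Eμ-TCL1 (exact permutation p = 0.333, the smallest for 2 against 2) and 2.21 in p53R172H/+ (exact permutation p = 0.1, the smallest for 3 against 3). Bcl2 against Mcl1 differed by -0.03 in Eμ-TCL1 (standard error 0.54) and 0.22 in p53R172H/+ (standard error 1.23), with an adjusted p of 0.889 in both by the exact permutation test.

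**Figure D3:**
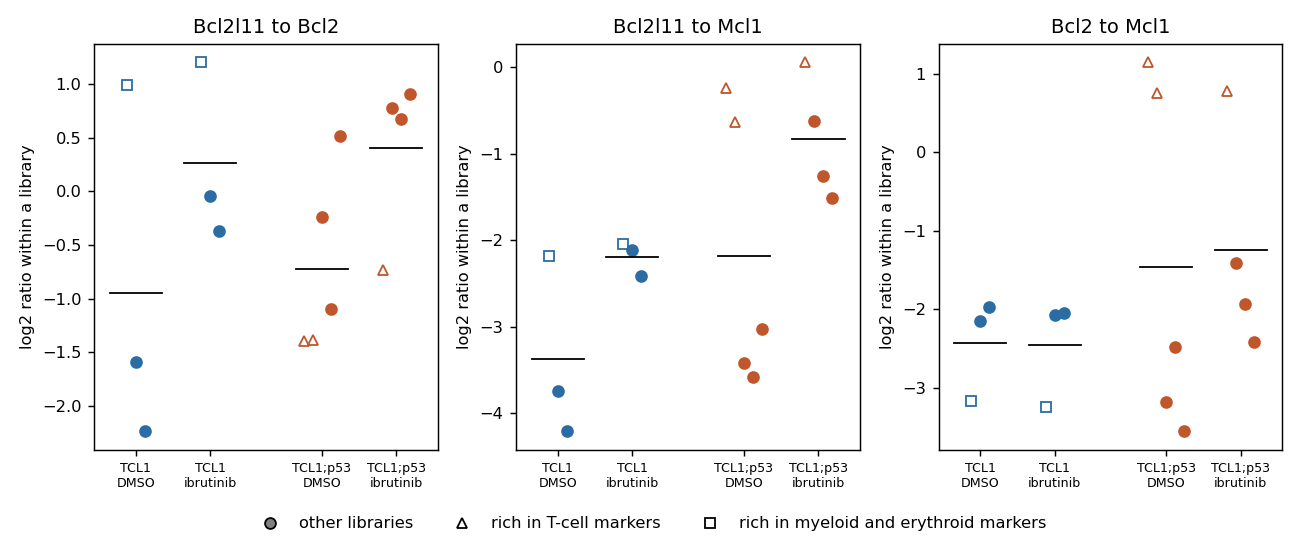
Log2 ratios of Bcl2l11 to Bcl2, Bcl2l11 to Mcl1 and Bcl2 to Mcl1 within each library, by genotype and treatment, with the group mean as a line and symbols as in the plot of members by library. Among the filled circles, Bcl2l11 to Mcl1 lay between -4.20 and -3.03 in DMSO and between -2.42 and -0.63 in ibrutinib.

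The members did not vary independently over the 15 libraries. After centring log2 values on the mean of each table, Bcl2 and Bcl2l11 ran together (r = 0.76) while Bcl2 and Bmf ran opposite (r = -0.93), and Mcl1 ran with Bid (r = 0.87) and against Bcl2l1 (r = -0.81). The T-cell-rich libraries held the highest values of Bcl2 and Bcl2l11 and the lowest of Bmf. No r between members is given without the libraries that stood apart, so these pairs may reflect differences between kinds of library. Bcl2 and Bcl2l11 had an r of 0.70 and 0.76 with the summed T and NK markers, and Bid and Bcl2a1b both had an r of 0.87 with the B-cell markers. Over the 10 libraries that did not stand apart, the r of Bcl2 with the T and NK markers was -0.18 and that of Bcl2l11 was -0.15, while the r with the B-cell markers was 0.81 for Bid and 0.33 for Bcl2a1b. These correlations describe libraries that share tables and perhaps mice, and carry no test.

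**Figure D4:**
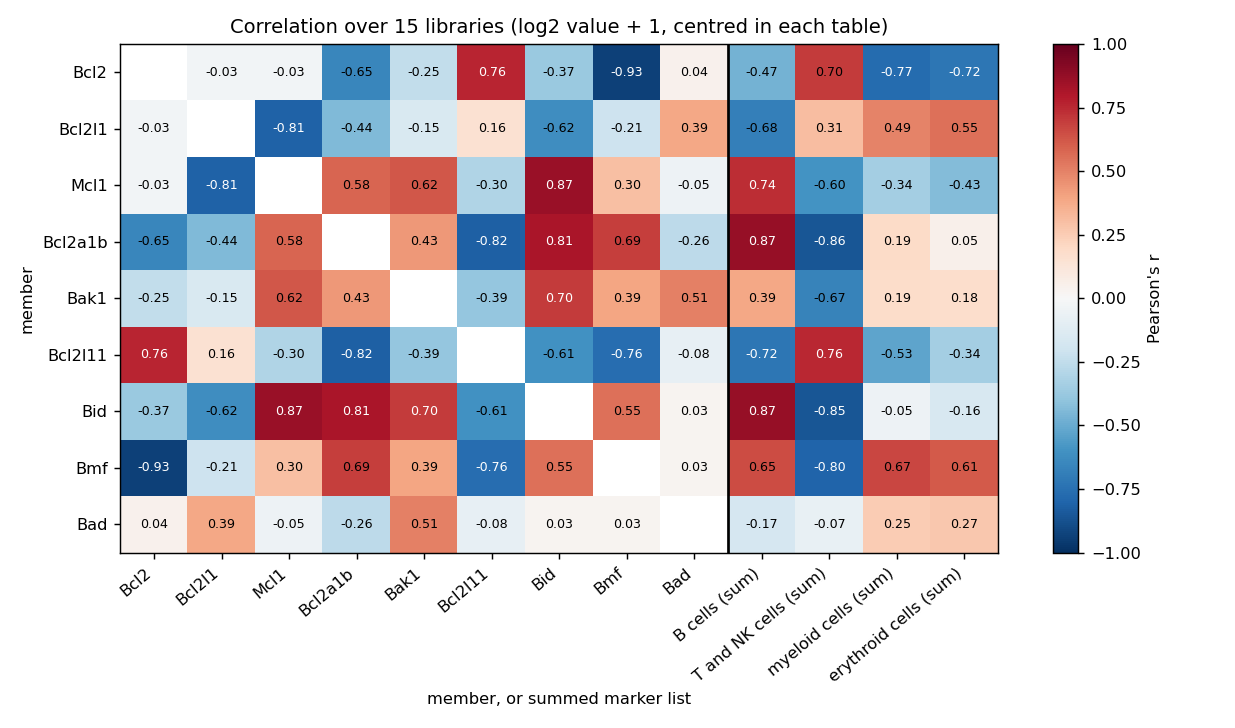
Pearson's r between members, and between members and 4 summed marker lists (right of the black line), over 15 libraries after centring on each table's mean. Bcl2 and Bmf show the strongest opposition, at -0.93, and Bid and Bcl2a1b the closest relation with B-cell markers, at 0.87.

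Among 10119 genes with a mean of at least 5 in both tables, the 3 most like each member were those with the highest r over the 15 libraries. They were Tmem194b, Igtp and Pik3cd for Bcl2 (r = 0.98, 0.97 and 0.96), Prkar2a, Tnfrsf1b and Fosl2 for Bcl2l1 (0.95 each), and Ubfd1, Grpel2 and Ccdc17 for Mcl1 (0.95, 0.94 and 0.94). For Bcl2a1b they were Psmd1, Cnih1 and Ctsc (0.95 each), for Bak1 Slc39a1, Sh3bgrl3 and Fam120a (0.94, 0.89 and 0.89), and for Bcl2l11 Mettl8, Nr2c2 and E130102H24Rik (0.96, 0.95 and 0.94). For Bid they were Nfkb1, Cyb561a3 and H2-DMa (0.965, 0.964 and 0.956), for Bmf Hhex and Aldh2 were among them (0.965 each), and for Bad Ccdc12, Ppm1m and Slc12a9 (0.903, 0.885 and 0.878). Nfkb1 is a subunit of NF-κB and H2-DMa loads peptides on MHC class II.

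Over all 15 libraries Bcl2 and Bcl2l11 ran together, with both highest in the T-cell-rich ones. No r between these genes is given without the libraries that stood apart. The 250 bases before the Bcl2 start and the first Bcl2l11 start are shown (RefSeq, GRCm38.p6), in the direction of transcription. Whether these genes share regulation was not tested. Capitals mark a match to the FoxO core GTAAACA on either strand. FoxO factors are known activators of Bim when survival signals fall.
Bcl2l11, chr2:128125788-128126037, plus strand: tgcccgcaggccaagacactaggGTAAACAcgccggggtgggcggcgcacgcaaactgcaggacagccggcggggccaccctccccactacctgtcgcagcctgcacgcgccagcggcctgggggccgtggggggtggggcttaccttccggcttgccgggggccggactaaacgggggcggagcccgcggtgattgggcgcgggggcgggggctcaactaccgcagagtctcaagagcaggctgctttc
Bcl2, chr1:106714291-106714540, minus strand: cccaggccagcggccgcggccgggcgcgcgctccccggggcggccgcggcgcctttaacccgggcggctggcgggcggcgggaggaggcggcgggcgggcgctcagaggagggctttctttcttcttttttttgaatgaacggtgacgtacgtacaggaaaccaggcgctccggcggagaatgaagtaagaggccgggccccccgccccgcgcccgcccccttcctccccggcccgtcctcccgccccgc
The match in Bcl2l11 begins at position -227 from the first of its 2 annotated starts. The window before the other Bcl2l11 start (chr2:128127325-128127574), which is not shown, had no match, nor had the window before Bcl2. Over 15 windows of the 9 measured members (several have more than 1 annotated start), this was the only match to GTAAACA, which 3.17% of all 32851 windows hold. The cAMP response element core TGACGTCA had no match (1.55% of all windows), the NF-κB consensus matched 1 window, of Bcl2l1 (3.9%), and the p53 half-site 1 window, of Bmf (7.13%). Both strands were searched for each motif, and no match overlapped another. A match of letters is not a measured binding site.

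Other genes of the pathway were read from 6 lists of 44 genes (other survival genes, other effectors, other BH3-only genes, the apoptosome and caspases, death receptor genes, and partners and turnover), of which 39 were measured. None passed the adjusted test in DMSO, in ibrutinib or for the interaction. In DMSO, 4 lay wholly above in p53R172H/+ (Bax, Fadd, Huwe1 and Vdac2) and 1 wholly below, beside 3.52% and 2.93% of all genes. Bax, the second effector and a p53 target, averaged 31.4 (SD 4.78) in 3 Eμ-TCL1 libraries and 54.3 (SD 13.6) in 5 p53R172H/+ libraries, with a log2 difference of 0.75 (standard error 0.25, adjusted p = 0.543). Birc5, or survivin, which cycling cells express, was 21.5 ± 13.1 and 5.56 ± 3.01, a change of -1.62 (standard error 0.54, adjusted p = 0.544).

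In ibrutinib, 2 of the 39 lay wholly above in p53R172H/+ (Bik and Tnfrsf10b) and 4 wholly below, among them Birc5, Apaf1 and Bcl2l2, beside 6.68% and 5.97% of all genes. Bik, a BH3-only gene, was near 0 in both groups, at 0.333 (SD 0.208) in 3 Eμ-TCL1 and 1.90 (SD 0.589) in 4 p53R172H/+ libraries, with a log2 difference of 1.11 (standard error 0.24, adjusted p = 0.220). Bcl2l2, which encodes the survival protein Bcl-w, was 10.2 ± 2.79 and 4.70 ± 0.909, a change of -0.96 (standard error 0.27, adjusted p = 0.295). The BH3-only p53 targets Bbc3 (Puma) and Pmaip1 (Noxa) overlapped between genotypes, with changes of 0.48 and 0.19 in DMSO and 0.28 and 0.20 in ibrutinib and adjusted p-values of 0.651 to 0.916. For the interaction, the 3 genes with the lowest p were Bax at -0.46, Dffa at -0.49 and Vdac2 at -0.27 (standard errors 0.30, 0.34 and 0.18), each with an adjusted p of 1. The part of cell makeup in the values of these genes was not tested. Of the listed genes, Bcl2l10, Bok and Hrk and the Bcl2a1 copies a and c were in neither table.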

How the data were processed

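RNA from splenic cells was sequenced on an Illumina platform. Per the authors' methods and the submitters' processing notes, reads were aligned with TopHat2 2.0.12 to GRCm38 (mm10), handled with SAMtools 0.1.19, counted per gene with HTSeq on GENCODE M2 and normalized with edgeR after removal of genes under 0.5 CPM. The deposited signal values are CPM of an effective library size, with factors set separately per table and rounded to 0.1. Whether counting used strand was not given in the sources used here. Whole reads could not be recovered, so count tests were not run, the depth is unknown and no counting intervals are given. Groups were taken from sample labels, and all columns were mapped. Genotypes were compared with limma 3.58.1 in R 4.3.3 (trend, pseudocount 1, Benjamini-Hochberg over all genes, threshold 0.05) and by two-sided exact permutation of group means. Ratios used a pseudocount of 0.1. The fit was tested on simulated data with 200 changed genes and a smaller spread than in these data. That test does not show what the fit recovers at the real spread. Alternatives were other pseudocounts (0.1 and 5, and 1 for ratios), a mean value of at least 5, limma sample weights, quantile scaling, a replicate block, single libraries left out, only DMSO libraries with Xist of at least 100, and removal of libraries that stood apart. The removal that also drops Eμ-TCL1 ibrutinib replicate 1 was added after seeing the data. Named genes were all members, the 3 pathway genes with the lowest p per comparison, and the 3 genes most like each member. Other survival, effector and BH3-only genes could also be named, and Fadd, Huwe1, Vdac2, Tnfrsf10b, Apaf1, Birc5 in ibrutinib, Igkv12-89 and Ighv1-55 were named after their values were seen. Of the genes this rule takes, 2 are not reported here. The members and lists were chosen with earlier results of these data known. Figures were drawn with matplotlib 3.10.9.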

Additional observations from a re-analysis of the deposited data

Results flagged for a closer look

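In p53R172H/+ libraries cultured with ibrutinib, replicate 1 stood away from the other 3 for Bcl2, at 523.6 beside 50.1 to 98, and for the log2 ratio of Bcl2l11 to Bcl2, at -0.7288 beside 0.6761 to 0.9034. This library also had the lowest B-cell marker sum of all 15, at 84.3. Replicate 5 stood away from the others for Bid, at 36.2 beside 22.2 to 24.5. These were 3 such values among 24 groups tested by Dixon's criterion at 95%, which chance alone exceeds in about 1 of 20 groups.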

How the results depend on the processing

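No member passed an adjusted p of 0.05 under any alternative, but the direction of several members depended on the processing. Of the member values recomputed, 410 kept their direction and 76 reversed it, and the cause was not tested. In DMSO the number of genes that passed was 2, and 6 with a pseudocount of 5, 803 with sample quality weights (299 higher and 504 lower), 12 without the libraries that stood apart, 1 with Xist-expressing libraries only, and from 0 to 61 with single libraries left out (61 without Eμ-TCL1 replicate 2, 0 without Eμ-TCL1 replicate 3 and 5 without p53R172H/+ replicate 4). In ibrutinib it was 0, 28 with weights, and 0 to 24 with single libraries left out (24 without Eμ-TCL1 replicate 1 and 5 without p53R172H/+ replicate 5). For the interaction it was 0 throughout.

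With sample quality weights the change in DMSO was -0.58 for Bcl2, 0.018 for Mcl1, 0.19 for Bcl2a1b and 0.34 for Bmf. In ibrutinib it was -0.31 for Bcl2 and 0.29 for Bcl2l1, and the interaction was 0.22 for Bcl2, 0.26 for Bcl2l1, -0.79 for Bmf and 0.14 for Bad. Without the libraries that stood apart in DMSO it was -1.07 for Bcl2, 0.14 for Bcl2l1, 0.61 for Bcl2a1b, 0.039 for Bid and 0.47 for Bmf. Without p53R172H/+ replicate 1 in ibrutinib, Bcl2 was at -0.094, and with these libraries removed from both tables the interaction was 0.98 for Bcl2, -0.87 for Bmf and 0.080 for Bad. When Eμ-TCL1 ibrutinib replicate 1 was removed as well, the change in ibrutinib was -0.81 for Bcl2 and 0.36 for Bcl2l1, and the interaction was 0.26 for Bcl2, 0.21 for Bcl2l1, -0.55 for Bmf and 0.26 for Bad. With Xist-expressing libraries only, the change in DMSO was -0.30 for Bcl2, 0.64 for Mcl1, 0.67 for Bcl2a1b, 0.11 for Bak1, 0.48 for Bid and 0.43 for Bmf.

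With single libraries left out, the change in DMSO ranged from 0.15 to 1.37 for Bcl2, -0.64 to 0.92 for Bcl2l1, -0.45 to 0.28 for Mcl1, -0.58 to 0.32 for Bcl2a1b, -0.38 to 0.0087 for Bak1 and -0.54 to 0.12 for Bid. In ibrutinib it ranged from -0.096 to 1.03 for Bcl2 and -1.11 to 0.58 for Bcl2l1. The interaction ranged from -1.05 to 0.47 for Bcl2, -1.41 to 0.67 for Bcl2l1, -0.41 to 0.92 for Bmf and -0.12 to 0.17 for Bad. The Bcl2 to Mcl1 ratio ranged from -0.39 to 0.37 in Eμ-TCL1 and -0.45 to 0.87 in p53R172H/+, the Bcl2l11 to Bcl2 ratio from 0.57 to 2.18 in Eμ-TCL1 and 0.96 to 1.505 in p53R172H/+, and the Bcl2l11 to Mcl1 ratio from 0.77 to 1.78 and 1.0 to 1.83.

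Same-numbered libraries of the 2 treatments were compared by their deviations from their group means. These deviations correlated between 0.715 and 0.837, except p53R172H/+ replicate 3 at -0.104. Every group held a library that stood apart and shifted its mean, so these correlations cannot show that equal numbers mark the same mouse. Xist in p53R172H/+ replicate 3 was 1491.3 in DMSO and 1.0 in ibrutinib, so equal numbers need not mark the same mouse. The numbers were therefore not taken as pairs. Within a treatment, the replicate block joined same-numbered libraries of the 2 genotypes, which are different mice. Deviations of such libraries correlated between -0.167 and 0.247, so this block has no basis in the design. With it, 0 genes passed in DMSO and in ibrutinib, and the change of Bcl2a1b in DMSO was 0.24. For the interaction, the block joined same-numbered libraries of the 2 treatments within a genotype, and 0 genes passed. There the interaction was 0.18 for Bcl2, -0.55 for Bmf and 0.22 for Bad. The blocked Bcl2l11 to Mcl1 difference was 1.71 in Eμ-TCL1 and 1.74 in p53R172H/+. For the 6 numbers that both treatments share within a genotype, this ratio was higher in ibrutinib by 0.298 to 2.795 and that of Bcl2l11 to Bcl2 by 0.383 to 1.86. The 2.795 was of p53R172H/+ replicate 3, which also enters the blocked 1.74, and the next highest was 2.329. These differences carry no test. Unknown depth leaves the counting error of low genes such as Bik, Bmf and Bcl2a1b unmeasured.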
